A study of Thermochaetoides thermophila with 9 samples.

Results

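Xylose was given to sugar-starved mycelium of wild-type Chaetomium thermophilum (Thermochaetoides thermophila), a thermophilic filamentous ascomycete that lives on plant material. The comparison was chosen by the labels alone: 3 xylose libraries against 3 reference libraries, of the 9 in the series, with every gene that passed a filter on low counts. Of 7785 genes listed, 6904 were tested and 483 had no read in any of the 9 libraries.

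Mycelia grown at 50 °C were kept in a minimal medium lacking sugar for 48 h according to the labels, to deplete stored carbon. The study's text gives more than 1 length for this step, and a warmer culture in 1 place. The xylose cultures then received 1% (w/v) D-xylose for 6 h, and the reference cultures stayed in minimal medium without sugar for the same 6 h. Each group had 3 biological replicates, and all were of 1 wild-type strain. The medium kept peptone and yeast extract in both groups, so the reference was starved of sugar rather than of every carbon source. The remaining 3 libraries, which received 1% glucose for 6 h, entered the same fit and are used below only to ask whether a gene differed between the sugars.

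Filamentous fungi take xylose from xylan, the main hemicellulose of plant cell walls, with secreted xylanases and xylosidases. Inside the cell, xylose is reduced to xylitol, oxidised to xylulose and phosphorylated, and the product enters the pentose phosphate pathway, which feeds glycolysis. Without sugar, fungi rely on gluconeogenesis, on breakdown of amino acids, lipids and cell constituents, and on a low rate of ribosome production.

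Counts on genes ranged from 45274924 to 52229013 per xylose library and from 43158740 to 48802019 per reference library. The 26S rRNA gene CTHT_0000050 took between 11.6% and 13.3% of a xylose library and between 15.7% and 32.0% of a reference library, the highest share being that of reference replicate 3. Values are given as CPM, read counts scaled to a common library size with edgeR's TMM factors, and are therefore shares of each library. The RNA content of the cultures was not measured, so less RNA of a gene per cell and a smaller share of the cells carrying it cannot be told apart.

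Reference replicate 2 stood apart from reference replicates 1 and 3. Ribosomal protein genes took 3.97% of its reads outside rRNA genes, against 1.12% in reference replicate 1 and 0.843% in reference replicate 3. Among the genes found higher in xylose, this library had the highest reference value in 56.1% of cases, and among those found lower it had the lowest in 51.8%. Counts of genes are therefore given with and without it where they differ by more than 1.5 times, and its value is printed for each gene described in full.

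Xylose changed a majority of the transcriptome. Of the genes tested, 4463 (64.6%) passed edgeR's quasi-likelihood test at a Benjamini-Hochberg adjusted p-value under 0.05 and are called differentially expressed genes (DEGs). They divided almost evenly, with 2227 genes (32.3%) up and 2236 genes (32.4%) down in xylose relative to the reference. The median log2-fold change was 1.92 among the genes that rose and -1.77 among those that fell, and -0.05 over all genes tested. TMM scaling centres the changes of most genes, so the even division and the median over all genes partly follow from the scaling. They do not describe amounts of RNA per cell. A change of at least 2 on the log2 scale was seen in 1048 DEGs that rose and 885 that fell, and a change of at least 4 in 122 and 107. In 4225 of the DEGs no xylose library overlapped any reference library, and over all genes tested 4574 (66.3%) did not overlap. With each of the 6 xylose and reference libraries left out in turn, 3634 of the 4463 DEGs were called in the same direction every time, 1829 of them higher and 1805 lower. Without reference replicate 2, 4216 of them remained DEGs in the same direction.

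**Figure D1:**
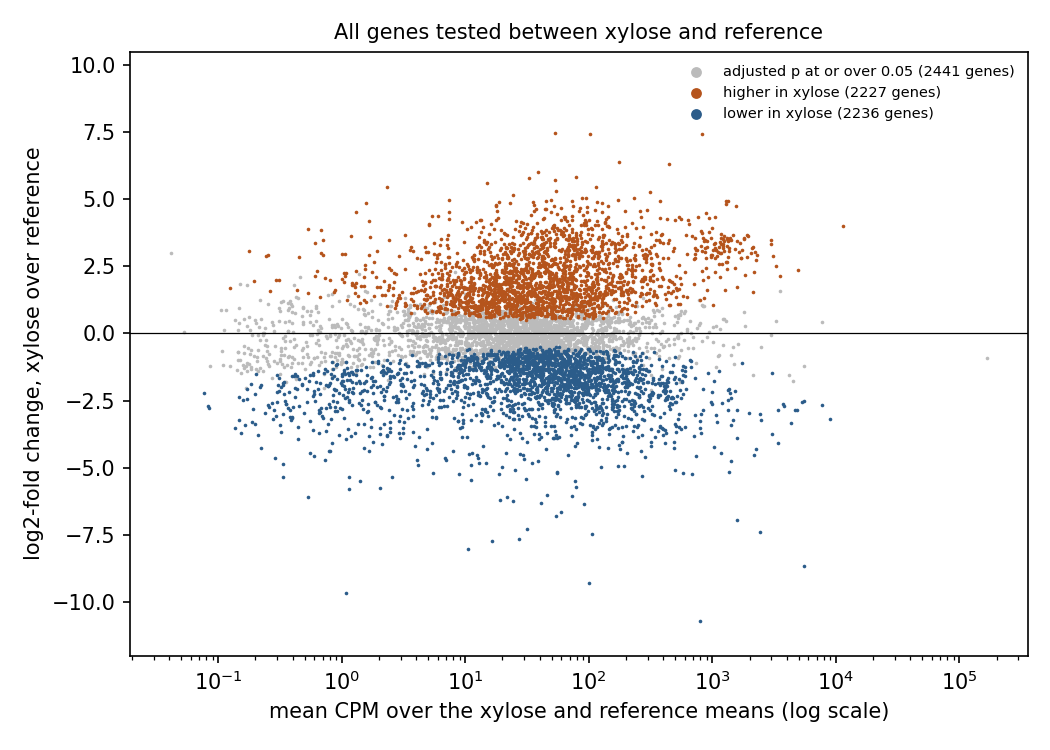
Log2-fold change of each of the 6904 genes tested (vertical axis, xylose over reference) against its CPM averaged over the xylose and reference means (horizontal axis, log scale). Orange points are the 2227 genes higher in xylose, blue points the 2236 genes lower and grey points the rest; DEGs lie at every level, and the most negative values reach -10.69.

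DEGs were more frequent among genes with more reads. With the genes ranked by mean CPM and divided into 4 equal groups, 53.8% were DEGs in the lowest group and 75.6% in the highest. The lowest group held 395 genes that rose and 534 that fell, and the highest held 633 that rose and 672 that fell.

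Product names came from the study's supplementary tables for 2054 of the genes tested, of which 654 rose and 810 fell. Most named genes came from the study's table of genes that rank highest in glucose. Over the 1999 tested genes of that table, with or without a name, 37.2% rose and 32.7% fell in xylose against the reference. The median of these 1999 genes was 0.14 on the log2 scale. Lists by product name are read against these shares, and against the 32.3% higher and 32.4% lower over all genes tested. Genes whose only name comes from the study's table of called genes, held here in part, are in no list, with 1 exception among the cellulases, so the lists are not complete pathways. The plot of the gene lists shows 26 of them by their members.

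**Figure D2:**
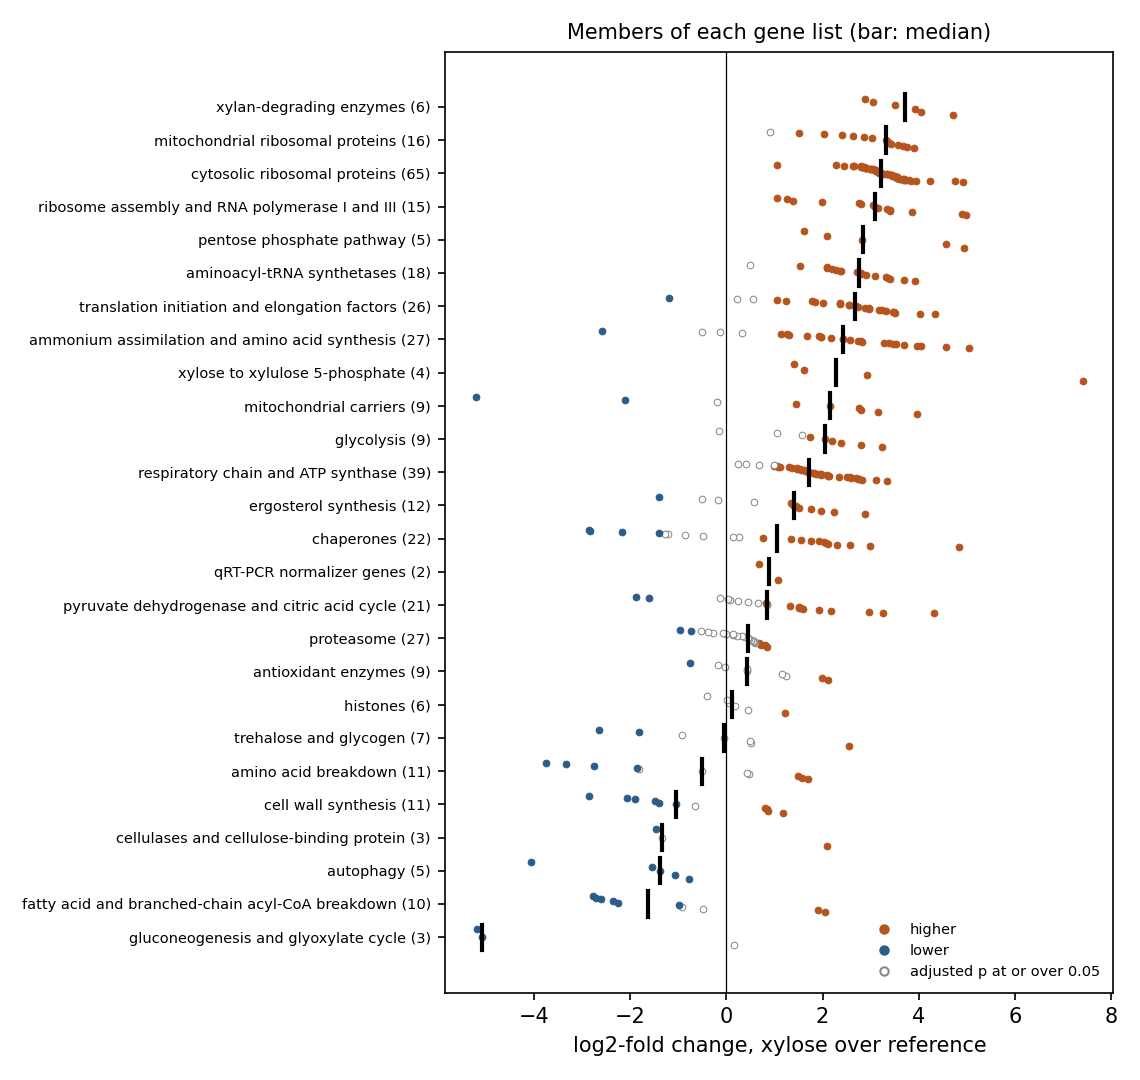
Log2-fold change (horizontal axis, xylose over reference) of every member of 26 gene lists, with the number of genes tested in parentheses and a black bar at the list's median. Orange points were higher in xylose, blue points lower, and open points did not pass the test; medians run between -5.07 for gluconeogenesis and the glyoxylate cycle and 3.71 for the xylan-degrading enzymes.

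All 6 genes that the study lists as xylan-degrading enzymes rose in xylose, against 32.3% of the genes tested, with a median log2-fold change of 3.71. The study picked its genes with these libraries at hand, so their direction is not independent evidence. A xylosidase-like gene (CTHT_0011440), whose class of enzyme releases xylose from short xylan fragments, had 159.9, 193 and 204 CPM in the 3 xylose libraries, against 6.15, 11.01 and 4.201 CPM in the 3 reference libraries. The log2-fold change was 4.70 ± 0.37 (SE), with an adjusted p of 5.08e-06 in edgeR's test. Xylan 1,4-beta-xylosidase (CTHT_0064690) had 76.7, 132 and 76.5 CPM in xylose and 5.05, 8.67 and 5.18 CPM in the reference, a log2-fold change of 3.92 ± 0.33. Both groups were well separated in each of these genes, with reference replicate 2 the highest of the reference libraries.

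Endoxylanases cut within the xylan chain, and their genes rose to different extents. The endo-1,4-beta-xylanase CTHT_0042130 had 99.5, 234 and 136 CPM in xylose and 20.4, 26.7 and 10.002 CPM in the reference (log2-fold change 3.04 ± 0.41). The beta-xylanase CTHT_0050050 had 112, 153 and 93.6 CPM in xylose and 14.5, 19.4 and 14.8 CPM in the reference (log2-fold change 2.88 ± 0.32). In the beta-xylanase CTHT_0039870, xylose replicate 2 stayed close to the reference: the xylose libraries had 280.0, 35.5 and 356 CPM and the reference libraries 10.8, 22.997 and 7.09 CPM, a log2-fold change of 4.04 ± 0.73. The endo-1,4-beta-xylanase CTHT_0047500 showed the same order among xylose libraries, on few reads, with 1.22, 0.195 and 2.51 CPM in xylose and 0.136, 0.0861 and 0.119 CPM in the reference. Its log2-fold change was 3.49 ± 0.83, with an adjusted p of 0.00328 in edgeR's test. The fit of only xylose and reference libraries tested 5 of the 6 genes, without CTHT_0047500, and called all 5 higher. All 6 genes were also higher in xylose than in glucose in edgeR's test, where 28.2% of all genes were. They were picked with these libraries at hand, so this direction is not independent evidence either.

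The 3 genes listed by the study for cellulose did not move as a group. The putative cellulose-binding protein CTHT_0003950 rose, with 11.6, 34.5 and 8.53 CPM in xylose and 5.07, 4.001 and 3.7001 CPM in the reference (log2-fold change 2.09 ± 0.50), and its highest library was xylose replicate 2. Without that library the log2-fold change was 1.25, with an adjusted p of 0.00961 in edgeR's test. The cellulase-like gene CTHT_0060530 was below 2 CPM in all libraries, with 0.2297, 0.629 and 0.295 CPM in xylose and 0.6405, 0.817 and 1.72 CPM in the reference. It was called lower, with a log2-fold change of -1.46 ± 0.54 and an adjusted p of 0.0338 in edgeR's test, and it was no DEG without xylose replicate 1 (adjusted p = 0.0965), xylose replicate 3 (0.109) or reference replicate 3 (0.174, with a log2-fold change of -0.93). The cellulase-like gene CTHT_0045500 had 1.396, 1.95 and 0.589 CPM in xylose and 5.22, 1.03 and 3.65 CPM in the reference and did not pass the test (adjusted p = 0.0618, edgeR). It passed without reference replicate 2, at an adjusted p of 0.00621, and without xylose replicate 2, at 0.0355.

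All 4 listed genes that carry xylose to xylulose 5-phosphate rose, against 32.3% of all genes tested, but by very different amounts. Except for CTHT_0020140, the study picked them with these libraries at hand, so their direction is not independent evidence. D-xylose reductase (CTHT_0056950), which makes xylitol, had 1766, 1161 and 1988 CPM in xylose, against 7.41, 14.6 and 6.83 CPM in the reference. Its log2-fold change of 7.41 ± 0.52 was the third highest among the DEGs whose groups did not overlap, at an adjusted p of 3.24e-06 in edgeR's test. Even the lowest xylose library was far above the highest reference library.

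The 2 genes named as xylitol dehydrogenases, which make xylulose, rose less. CTHT_0073860 had 633, 319 and 493 CPM in xylose and 181, 199.7 and 167 CPM in the reference (log2-fold change 1.40 ± 0.30). CTHT_0020140 had 126, 263 and 130.3 CPM in xylose and 41.4, 102 and 25.6 CPM in the reference (log2-fold change 1.62 ± 0.47), and its highest reference library, replicate 2, came close to the lowest xylose library. The genes differed when xylose was set against glucose. CTHT_0073860 was higher in xylose than in glucose by 5.10 ± 0.35 on the log2 scale (SE), at an adjusted p of 2.31e-05 in edgeR's test. The study named it among its most xylose-induced genes from these libraries, so this difference is not independent evidence. For CTHT_0020140 the difference was 1.17 ± 0.46 with an adjusted p of 0.0535, which missed the threshold. Xylulose kinase (CTHT_0022560), which adds the phosphate, had 279.9, 543 and 444 CPM in xylose and 60.6, 65.1 and 40.4 CPM in the reference, a log2-fold change of 2.93 ± 0.33.

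All 5 listed genes of the pentose phosphate pathway rose as well, against 32.3% of all genes tested, with a median log2-fold change of 2.83. Transketolase (CTHT_0066780), which exchanges carbon units between sugar phosphates, had 2032, 2248 and 3167 CPM in xylose and 61.7, 131 and 49.1 CPM in the reference. At 4.94 ± 0.51 on the log2 scale it was among the 10 largest increases of genes with a product name. Ribulose-phosphate 3-epimerase (CTHT_0003090), which interconverts the pentose phosphates, had 123, 173 and 187 CPM in xylose and 2.54, 16.1 and 1.93 CPM in the reference, so that reference replicate 2 stood well above the other reference libraries. The log2-fold change was 4.55 ± 0.75.

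The remaining members rose less. Glucose-6-phosphate 1-dehydrogenase (CTHT_0057650), the entry of the oxidative branch, had 445, 234 and 544 CPM in xylose and 45.4, 70.6 and 56.3 CPM in the reference (log2-fold change 2.83 ± 0.36). For 6-phosphogluconate dehydrogenase (CTHT_0060270), the next oxidative step, the values were 1285, 2303 and 1966 CPM in xylose and 456, 409 and 441 CPM in the reference (log2-fold change 2.09 ± 0.37). Transaldolase (CTHT_0013420), which works beside transketolase, had 1179.9, 2689 and 1891 CPM in xylose and 425, 1025 and 439.5 CPM in the reference. Its log2-fold change of 1.61 ± 0.50 (adjusted p = 0.0149, edgeR) was no longer called without reference replicate 1 (adjusted p = 0.0633) or reference replicate 3 (0.0530). Except for transaldolase, the genes of the pathway were also higher in xylose than in glucose, where 28.2% of all genes were.

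**Figure D3:**
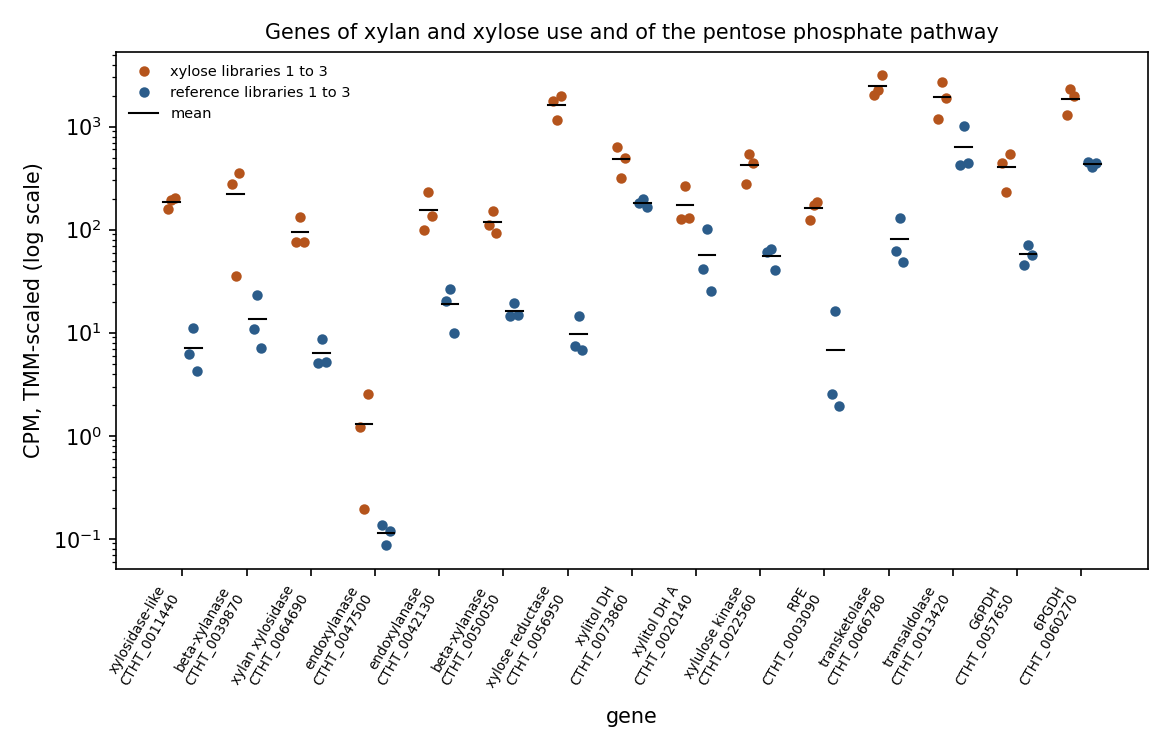
CPM scaled by TMM (vertical axis, log scale) of 15 genes of xylan and xylose use and of the pentose phosphate pathway, with the 3 xylose libraries left (orange) and the 3 reference libraries right (blue) of each gene's tick and a bar at each mean. RPE is ribulose-phosphate 3-epimerase, DH dehydrogenase, and G6PDH and 6PGDH are the 2 oxidative dehydrogenases; no xylose library lies below a reference library of the same gene, and xylose reductase is separated most.

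Of 9 glycolytic genes, 6 rose in xylose and none fell, against 32.3% and 32.4% of all genes tested. Glucose-6-phosphate isomerase (CTHT_0035120) had 462, 596 and 664 CPM in xylose and 31.3, 125 and 26.4 CPM in the reference, a log2-fold change of 3.24 ± 0.56. Phosphofructokinase (CTHT_0014530), which commits carbon to glycolysis, had 139, 132 and 196 CPM in xylose and 38.2, 69.5 and 32.2 CPM in the reference (log2-fold change 1.74 ± 0.32). Pyruvate kinase (CTHT_0017880), the last step, had 585, 1211 and 862 CPM in xylose and 131, 383 and 129 CPM in the reference (log2-fold change 2.05 ± 0.50). In each of these genes reference replicate 2 was the highest reference library, yet below every xylose library.

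Phosphoglycerate mutase (CTHT_0016420) had 455, 349 and 723 CPM in xylose and 65.6, 104 and 51.8 CPM in the reference (log2-fold change 2.79 ± 0.38). For triosephosphate isomerase (CTHT_0025650) the log2-fold change was 2.38 ± 0.69, and 3.81 without reference replicate 2. For enolase (CTHT_0067300, named as 2-phospho-D-glycerate hydro-lyase) the values were 2165, 3036 and 3783 CPM in xylose and 281, 1530.0 and 156 CPM in the reference. Its log2-fold change was 2.19 ± 0.75 with an adjusted p of 0.0237 in edgeR's test, and 3.68 without reference replicate 2. It was no DEG without xylose replicate 3 (adjusted p = 0.0621), reference replicate 1 (0.0839) or reference replicate 3 (0.0568), nor with only xylose and reference libraries fitted (0.0504).

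The other 3 glycolytic genes overlapped between the groups. Glyceraldehyde-3-phosphate dehydrogenase (GAPDH, CTHT_0004880) had 2519, 8472 and 4883 CPM in xylose and 919, 3733 and 687 CPM in the reference (adjusted p = 0.079, edgeR). Phosphoglycerate kinase (CTHT_0037370) had 747, 1167 and 1418 CPM in xylose and 249.7, 1139 and 226 CPM in the reference (adjusted p = 0.163, edgeR). Without reference replicate 2 both were DEGs, with log2-fold changes of 2.63 and 2.12 in place of 1.57 and 1.04. Fructose-bisphosphate aldolase (CTHT_0050360) had 588, 825 and 1162 CPM in xylose and 722, 1486 and 646 CPM in the reference, and its log2-fold change of -0.15 ± 0.44 was 0.22 without that library, neither passing the test. No glycolytic gene differed between xylose and glucose in edgeR's test, where 50.8% of all genes did, with 28.2% higher and 22.6% lower in xylose.

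Of the 3 listed genes of gluconeogenesis and the glyoxylate cycle, 2 fell steeply. The gene named as phosphoenolpyruvate carboxykinase-like (PEPCK, CTHT_0044390), whose class of enzyme starts glucose synthesis, had 61.7, 73.8 and 86.5 CPM in xylose, against 1955, 4591 and 1441 CPM in the reference. The log2-fold change was -5.17 ± 0.58, at an adjusted p of 2.49e-05 in edgeR's test. The gene named as fructose-1,6-bisphosphatase-like (CTHT_0042460), for a later step by that name, which the study's table also places in inositol metabolism, had 15.7, 41.6 and 29.1 CPM in xylose and 817, 1174 and 917 CPM in the reference, a log2-fold change of -5.07 ± 0.46. In both genes the highest xylose library was far below the lowest reference library.

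Isocitrate lyase (CTHT_0010800), the first enzyme of the glyoxylate cycle, did not follow them. It had 126, 135 and 172 CPM in xylose and 101, 189.7 and 97.3 CPM in the reference, with overlapping groups and a log2-fold change of 0.16 ± 0.30 and an adjusted p of 0.663 in edgeR's test. Without reference replicate 3 the log2-fold change was -0.011. The PEPCK-like and fructose-1,6-bisphosphatase-like genes were also lower in xylose than in glucose, with log2-fold changes of -5.21 and -3.99 between the sugars. Outside the list, 2 genes fell as well. They are named only in the study's table of called genes, which uncalled genes could not enter, and are given here after their values were seen. Malate synthase (CTHT_0012510), the second enzyme of the glyoxylate cycle, had 54.2, 60.1 and 48.5 CPM in xylose and 676, 699 and 865 CPM in the reference (log2-fold change -3.78 ± 0.31), and a gene named as ATP-dependent PEPCK (CTHT_0017070) had 33.04, 34.9 and 25.5 CPM in xylose and 173, 75.5 and 193 CPM in the reference (log2-fold change -2.24 ± 0.43).

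In the mitochondrion, 11 of 21 genes of pyruvate dehydrogenase and the citric acid cycle rose and 2 fell, with a median log2-fold change of 0.84. Without reference replicate 2, 15 rose and 1 fell, and the median was 1.63. Over all genes tested, 32.3% rose and 32.4% fell. A malate dehydrogenase gene (CTHT_0032190) had 1604, 1712 and 2043 CPM in xylose and 80.1, 144 and 45.05 CPM in the reference, the largest increase of the list at 4.31 ± 0.49 on the log2 scale. The pyruvate dehydrogenase E1 beta subunit (CTHT_0006350) had 408, 476 and 512 CPM in xylose and 49.1, 59.98 and 38.2 CPM in the reference (log2-fold change 3.24 ± 0.29). An NAD-dependent isocitrate dehydrogenase subunit (CTHT_0033640) had 390.3, 939.7 and 541 CPM in xylose and 68.5, 116 and 55.8 CPM in the reference (log2-fold change 2.96 ± 0.41).

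The list also held genes that fell. One citrate synthase gene (CTHT_0010810) had 162, 145 and 427 CPM in xylose and 428, 1431 and 375 CPM in the reference, and fell by 1.60 on the log2 scale with overlapping groups. Without reference replicate 2 its log2-fold change was -0.83 and it was no DEG (adjusted p = 0.102, edgeR), nor was it without xylose replicate 1 (0.0754) or xylose replicate 2 (0.0950). An acetyltransferase component of pyruvate dehydrogenase (CTHT_0009610) had 49.7, 119 and 120.3 CPM in xylose and 261, 628 and 170.1 CPM in the reference, a log2-fold change of -1.87 ± 0.48.

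The respiratory chain and ATP synthase rose almost as a block: 35 of 39 genes were higher in xylose, none was lower, and the median log2-fold change was 1.71. Over all genes tested, 32.3% were higher and 32.4% lower. With 1 library left out, between 28 and 37 of the 39 were higher, and 30 with only xylose and reference libraries fitted. Reads on the list made up 3.45%, 4.07% and 4.09% of the reads outside rRNA genes in the xylose libraries and 0.747%, 1.48% and 0.489% in the reference libraries. The ATP synthase gene CTHT_0016430 had 4053, 6215 and 6152 CPM in xylose and 234, 1278 and 113 CPM in the reference (log2-fold change 3.34 ± 0.81). A core subunit of the cytochrome c reductase complex (CTHT_0007240) had 988, 1411 and 1596 CPM in xylose and 108, 299 and 57.98 CPM in the reference (log2-fold change 3.10 ± 0.57). An NADH-ubiquinone oxidoreductase gene (CTHT_0063510) of complex I had 249, 255 and 415 CPM in xylose and 26.7, 87.7 and 16.6 CPM in the reference. These groups did not overlap, although reference replicate 2 was well above the other reference libraries. Against glucose, 2 of the 39 rose in xylose and 2 fell, where 28.2% and 22.6% of all genes did.

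Mitochondrial carriers move metabolites and nucleotides across the inner membrane. Against 32.3% and 32.4% of all genes tested, 6 of 9 carrier genes rose and 2 fell. Of these genes, 3 came from the study's table of genes that differ most between the sugars. A mitochondrial pyruvate carrier gene (CTHT_0072990) had 115, 65.1 and 112 CPM in xylose and 4.37, 9.55 and 4.73 CPM in the reference (log2-fold change 3.97 ± 0.37). A further pyruvate carrier gene (CTHT_0014330) rose less, with 152, 206 and 183 CPM in xylose and 64.1, 79.3 and 55.6 CPM in the reference (log2-fold change 1.44 ± 0.25). The dicarboxylate transporter CTHT_0016040 had 40.5, 53.4 and 39.5 CPM in xylose and 6.09, 4.56 and 4.32 CPM in the reference (log2-fold change 3.15 ± 0.29). In all 3 the groups were separated without overlap.

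The 2-oxoglutarate/malate carrier (CTHT_0042630) moved the opposite way. It had 2.86, 3.21 and 2.73 CPM in xylose, against 94.2, 110.5 and 120.0 CPM in the reference, with little spread in either group. The log2-fold change was -5.20 ± 0.24 at an adjusted p of 7.5e-07 in edgeR's test. A carrier of unnamed substrate (CTHT_0033220) had 49.2, 76.3 and 50.4 CPM in xylose and 171, 454 and 132 CPM in the reference (log2-fold change -2.11 ± 0.43), and another (CTHT_0008520) had 128, 97.3 and 136 CPM in xylose and 120.3, 139 and 153 CPM in the reference, which overlapped. The calcium-binding carrier CTHT_0052990, the phosphate carrier CTHT_0005820 and the ADP/ATP carrier CTHT_0015330 rose by 2.75 ± 0.31, 2.80 ± 0.63 and 2.15 ± 0.66 on the log2 scale. The last was no DEG without reference replicate 1 (adjusted p = 0.0589, edgeR).

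Of the 26 lists, the ribosomal protein genes gained the largest share of the reads. All 65 cytosolic ribosomal protein genes rose, against 32.3% of all genes tested. The 65 genes had a median log2-fold change of 3.21 and a range of 1.06 to 4.92. They took 18.2%, 17.1% and 19.6% of the reads outside rRNA genes in the xylose libraries, against 1.12%, 3.97% and 0.843% in the reference libraries. In 64 of the 65 genes the groups did not overlap, against 66.3% of all genes tested. Without reference replicate 2 all 65 were still called, with a median of 4.38. The 40S protein S12 (CTHT_0070080) had 2466, 2435 and 2943 CPM in xylose and 54.3, 192 and 12.1 CPM in the reference, and the 60S protein L5-like (CTHT_0063640) had 2585, 2577 and 3752 CPM in xylose and 43.8, 265 and 21.9 CPM in the reference. The 40S protein S28-like (CTHT_0046470) had 1112, 1275 and 1239.9 CPM in xylose and 28.96, 146 and 18.05 CPM in the reference. Reference replicate 2 was the highest reference library in each of them and still far below xylose. Of the 65 genes, 27 were also higher in xylose than in glucose, and none was lower, where 28.2% and 22.6% of all genes were.

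**Figure D4:**
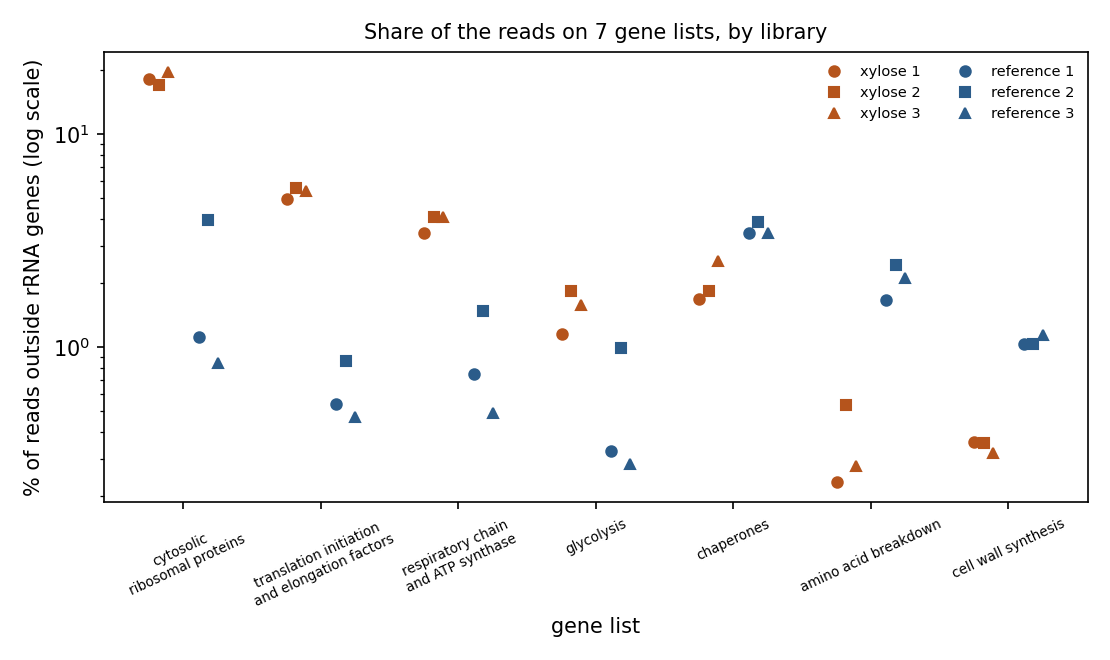
Share of the reads outside rRNA genes (vertical axis, percent on a log scale) taken by 7 gene lists (horizontal axis) in each xylose library (orange, left) and each reference library (blue, right), with a symbol for each replicate number. Ribosomal protein genes took 17.1% to 19.6% in xylose and 0.843% to 3.97% in the reference, and reference replicate 2 (square) is the highest reference library in 6 of the 7 lists, cell wall synthesis being the exception.

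Translation factors followed the ribosomal proteins, with 23 of 26 genes higher and 1 lower and a median log2-fold change of 2.68. Over all genes tested, 32.3% were higher and 32.4% lower. Elongation factor 1-alpha (CTHT_0012210), which brings aminoacyl-tRNA to the ribosome, had 15782, 24997 and 24010.5 CPM in xylose and 1008, 2414 and 592 CPM in the reference, a log2-fold change of 4.01 ± 0.72. After the 26S rRNA gene it took the most reads of all genes in xylose. Elongation factor 1-gamma (CTHT_0067860), its exchange partner, had 1599, 2337 and 2052 CPM in xylose and 45.3, 218 and 34.3 CPM in the reference (log2-fold change 4.33 ± 0.69). Initiation factor 5A (CTHT_0029800) had 2069, 2102 and 2512 CPM in xylose and 172, 325 and 94.96 CPM in the reference (log2-fold change 3.50 ± 0.49). The factor that fell was a putative initiation factor (CTHT_0066060) with 36.7, 37.7 and 47.2 CPM in xylose and 76.8, 119 and 80.6 CPM in the reference (log2-fold change -1.18 ± 0.28).

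The enzymes that charge tRNAs rose in 17 of 18 genes, with none lower and a median log2-fold change of 2.75. Over all genes tested, 32.3% rose and 32.4% fell. The glutamyl-tRNA synthetase CTHT_0024950 had 364, 477 and 514 CPM in xylose and 21.04, 52.8 and 16.1 CPM in the reference, and the lysyl-tRNA synthetase CTHT_0044380 had 570.1, 856 and 773 CPM in xylose and 39.6, 85.7 and 43.9 CPM in the reference. These were the largest increases of the list, at 3.91 ± 0.46 and 3.70 ± 0.40 on the log2 scale. Mitochondrial ribosomal proteins, which serve the organelle's own translation, rose in 15 of 16 genes, against the same 32.3%, with a median of 3.32. The 37S protein S25 (CTHT_0001410) had 148, 223 and 222 CPM in xylose and 13.2, 16.6 and 9.67 CPM in the reference (log2-fold change 3.91 ± 0.30). Its 3 reference libraries lay close together, as they did for the other mitochondrial ribosomal proteins with large increases, CTHT_0060210 and CTHT_0022630, with 6.21, 6.02 and 5.23 CPM and 10.9, 10.7 and 6.16 CPM.

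Genes of ribosome assembly and of RNA polymerases I and III, which make rRNA and small RNAs, rose in all 15 cases with a median of 3.08. Over all genes tested, 32.3% rose. Part of the list comes from the study's table of genes that differ most between the sugars, which was made from these libraries, so its direction is not independent evidence. A polypeptide shared by RNA polymerases I and III (CTHT_0057070) had 85.4, 112 and 92.4 CPM in xylose, against 3.57, 3.23 and 2.34 CPM in the reference (log2-fold change 4.98 ± 0.34, adjusted p = 3.24e-06, edgeR). The GTPase NOG2 (CTHT_0055100), which acts on the precursor of the 60S subunit, had 259.9, 199 and 217 CPM in xylose and 9.53, 7.702 and 5.59 CPM in the reference (log2-fold change 4.89 ± 0.34). Groups were separated in both, and reference replicate 2 lay within the range of the other reference libraries.

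Further assembly factors rose as well. The rRNA-processing protein 15 (CTHT_0025020) rose by 3.85 ± 0.25 on the log2 scale, the SLX9-domain protein CTHT_0055990 by 3.39 ± 0.30, the 60S assembly and export factor Loc1 (CTHT_0066500) by 3.39 ± 0.37 and the putative rRNA-processing protein CTHT_0062220 by 3.08 ± 0.27. The gar2-like protein CTHT_0060190, rich in glycine and arginine, had 279.5, 397 and 369.6 CPM in xylose and 45.9, 49.7 and 55.9 CPM in the reference (log2-fold change 2.79 ± 0.25). Initiation factor 6 (CTHT_0025830), which keeps the 60S subunit from joining early, had 214, 166 and 259 CPM in xylose and 24.998, 31.02 and 21.8 CPM in the reference (log2-fold change 3.04 ± 0.35). The helicase Dbp6 (CTHT_0015380) rose by 1.99 ± 0.30.

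Subunits of the H/ACA complex, which modifies rRNA, rose by 3.15 ± 0.40 (CTHT_0048300) and 1.26 ± 0.34 (CTHT_0066610). The biogenesis factor REI1 (CTHT_0044240) rose by 1.39 ± 0.26. RNA polymerase subunits covered the same range, with 3.33 ± 0.28 for Rpc4 (CTHT_0052940), 2.75 ± 0.24 for a subunit common to the 3 polymerases (CTHT_0058280) and 1.05 ± 0.21 for a polymerase III subunit (CTHT_0009170), the smallest increase of the list. In all 15 genes the xylose and reference libraries did not overlap, against 66.3% of all genes tested. As part of the list was picked from these libraries, this separation is not independent evidence either.

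Genes of amino acid synthesis mostly rose in xylose. Of 27 listed genes of ammonium assimilation and amino acid synthesis, 23 rose and 1 fell, with a median log2-fold change of 2.43. Over all genes tested, 32.3% rose and 32.4% fell. A saccharopine dehydrogenase-like gene (CTHT_0065790), named for an enzyme of lysine synthesis, had 385, 448 and 519.7 CPM in xylose and 5.59, 31.1 and 4.32 CPM in the reference, a log2-fold change of 5.04 ± 0.71. D-3-phosphoglycerate dehydrogenase-like (CTHT_0028080), the first step of serine synthesis, had 437, 533 and 533 CPM in xylose and 13.02, 34.98 and 16.04 CPM in the reference (log2-fold change 4.55 ± 0.45). Homoserine dehydrogenase (CTHT_0043810), on the way to threonine and methionine, had 152, 168 and 202 CPM in xylose and 2.85, 26.7 and 2.24 CPM in the reference (log2-fold change 4.03 ± 0.81). The gene of the list that fell was cystathionine beta-synthase (CTHT_0022050), with 187, 485 and 359 CPM in xylose and 1478, 3343 and 1363 CPM in the reference (log2-fold change -2.58 ± 0.54). A gene named D-3-phosphoglycerate dehydrogenase outside the list (CTHT_0043210, log2-fold change -7.66) also fell.

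Among 11 genes of amino acid breakdown, 4 fell and 3 rose, against 32.4% and 32.3% of all genes tested, and the median was -0.50. Those that fell are named for enzymes of proline, ornithine and glutamate. NAD-specific glutamate dehydrogenase (CTHT_0027020), which releases ammonium from glutamate, had 438, 1198 and 693 CPM in xylose, against 6478, 8632 and 8349 CPM in the reference (log2-fold change -3.33 ± 0.56, adjusted p = 0.000342, edgeR). Delta-1-pyrroline-5-carboxylate dehydrogenase (CTHT_0060010), which leads proline and ornithine to glutamate, had 78.4, 922 and 268 CPM in xylose and 4103, 8093 and 4835 CPM in the reference (log2-fold change -3.75 ± 0.80). Ornithine aminotransferase (CTHT_0070940) had 49.3, 95.6 and 68.1 CPM in xylose and 334, 689 and 402 CPM in the reference (log2-fold change -2.74 ± 0.40). In these 3 genes xylose replicate 2 was the highest xylose library and the groups still did not overlap.

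The member with the smallest decrease called, proline dehydrogenase (CTHT_0074640), is given after its values were seen. It had 53.1, 319 and 105 CPM in xylose and 328, 1166 and 225 CPM in the reference, with overlapping groups and a log2-fold change of -1.85 ± 0.70. It was no DEG without xylose replicate 1 (adjusted p = 0.0924, edgeR), xylose replicate 3 (0.117) or reference replicate 2 (0.193, with a log2-fold change of -0.88), nor with only xylose and reference libraries fitted (0.0672).

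The members that rose belong to glycine cleavage and to kynurenine metabolism. Glycine cleavage protein H (CTHT_0027810) had 189.5, 269.8 and 277 CPM in xylose and 49.9, 151 and 46.2 CPM in the reference (log2-fold change 1.57 ± 0.44), and protein T (CTHT_0009890) had 93.9, 170.2 and 141 CPM in xylose and 29.3, 87.6 and 26.8 CPM in the reference (log2-fold change 1.50 ± 0.46). Protein T was no DEG without reference replicate 1 (adjusted p = 0.0555, edgeR) or reference replicate 3 (0.0538). Kynurenine 3-monooxygenase (CTHT_0017800), which also serves synthesis of nicotinic acid, rose by 1.70 ± 0.43 on the log2 scale, and by 1.03 without xylose replicate 2.

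Chaperones moved in both directions. Of 22 genes, 12 rose and 4 fell, with a median of 1.06, and 7 fell without xylose replicate 3. Over all genes tested, 32.3% rose and 32.4% fell. The ribosome-associated Hsp70 SSB1 (CTHT_0058460), which binds chains as they leave the ribosome, had 2117, 2583 and 2740.2 CPM in xylose and 62.3, 138 and 60.7 CPM in the reference, a log2-fold change of 4.83 ± 0.50. The mitochondrial 10-kDa heat shock protein (CTHT_0031390) had 375, 722 and 579 CPM in xylose and 67.7, 93.2 and 50.5 CPM in the reference (log2-fold change 2.99 ± 0.36). The putative heat shock protein CTHT_0033740 rose by 2.58 ± 0.41.

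Other heat shock genes were among those with the most reads in the starved mycelium. The putative heat shock protein CTHT_0022720 had 356, 531 and 2514 CPM in xylose and 7387, 8975 and 8203 CPM in the reference (log2-fold change -2.85 ± 0.76). CTHT_0021290 had 416, 410.4 and 1667 CPM in xylose and 4228, 8178 and 5382 CPM in the reference (log2-fold change -2.83 ± 0.70). In both, xylose replicate 3 was the highest xylose library. CTHT_0005280 fell by 2.17 on the log2 scale. The Hsp70-like gene CTHT_0007430 had 2282, 2734 and 5007 CPM in xylose and 8695, 8729 and 5824 CPM in the reference, which did not overlap but missed the threshold (adjusted p = 0.0632, edgeR). It passed without reference replicate 2 (adjusted p = 0.0234) and without xylose replicate 3 (0.0384). Chaperones as a whole took 1.69%, 1.83% and 2.53% of the reads outside rRNA genes in xylose and 3.44%, 3.86% and 3.44% in the reference.

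Proteasome genes changed little. The median was 0.45 and no log2-fold change was beyond 0.97 in either direction. Of 27 genes, 6 rose and 2 fell, against 32.3% and 32.4% of all genes tested. This count depended on single libraries: without reference replicate 2 none rose and 4 fell, without xylose replicate 3 none rose, without xylose replicate 1 and reference replicate 3 in turn 1 rose, and without xylose replicate 2 and reference replicate 1 in turn 11 and 10 rose. The 3 largest increases were an alpha subunit (CTHT_0028210), a beta subunit (CTHT_0054190) and an endopeptidase subunit (CTHT_0063920), at 0.84 ± 0.28, 0.83 ± 0.28 and 0.80 ± 0.27 on the log2 scale. The regulatory subunit genes CTHT_0007690 and CTHT_0016490 fell by 0.97 and 0.74. These 3 increases were no DEGs without xylose replicate 3, reference replicate 2 or reference replicate 3 in turn, nor were CTHT_0028210 (adjusted p = 0.0698, edgeR) and CTHT_0063920 (0.0501) without xylose replicate 1. CTHT_0016490 was none without xylose replicates 1 or 2 or reference replicates 1 or 3.

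All 5 genes of the autophagy list fell, against 32.4% of all genes tested, with a median log2-fold change of -1.37. Autophagy recycles cell constituents and is induced by starvation in fungi. The autophagy-related gene CTHT_0057390 had 23.2, 21.4 and 18.5 CPM in xylose, against 309, 291 and 452 CPM in the reference, a log2-fold change of -4.06 ± 0.35 and an adjusted p of 6.32e-06 in edgeR's test. CTHT_0004990 had 129, 158 and 152 CPM in xylose and 273, 708 and 300.2 CPM in the reference (log2-fold change -1.54 ± 0.38). CTHT_0052280 had 39.1, 51.7 and 38.5 CPM in xylose and 66.8, 187 and 80.5 CPM in the reference, and its log2-fold change of -1.37 ± 0.41 was -0.87 without reference replicate 2. The groups were without overlap in all 5 genes, against 66.3% of all genes tested. All 5 were also lower in xylose than in glucose in edgeR's test, where 22.6% of all genes were.

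A further 5 genes have an autophagy name only in the study's table of called genes, and are given here after their values were seen. Genes that the study did not call could not enter this set, so how many passed the test is no result. Of the 5 genes, 4 fell and 1 rose, where 32.4% and 32.3% of all genes tested did. The autophagy-related protein 13 gene (CTHT_0042310) had 39.6, 45.5 and 40.5 CPM in xylose, against 419, 277 and 430.4 CPM in the reference (log2-fold change -3.17 ± 0.28). Those for autophagy-related protein 2 (CTHT_0063370), a putative autophagy protein (CTHT_0021470) and ATG12 (CTHT_0040630) had log2-fold changes of -1.85 ± 0.30, -1.58 ± 0.32 and -0.73 ± 0.24. The gene for autophagy-related protein 101 (CTHT_0023220) had 16.04, 12.3 and 9.94 CPM in xylose and 5.88, 5.68 and 8.67 CPM in the reference, a rise of 0.92 ± 0.33 on the log2 scale. It was no DEG without xylose replicate 1 (adjusted p = 0.179, edgeR), reference replicate 1 (0.0906) or reference replicate 2 (0.117), with total counts (0.0617) or with a replicate block (0.0511), and CTHT_0040630 was none without xylose replicate 3 (0.0558) or reference replicate 1 (0.0708) or with total counts (0.167).

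Breakdown of fatty acids and branched-chain acyl-CoA fell in 6 of 10 genes and rose in 2, with a median of -1.62 (-1.03 without reference replicate 2). Of all genes tested, 32.4% fell and 32.3% rose. A 3-ketoacyl-CoA thiolase-like gene (CTHT_0042470), for the last step of beta-oxidation, had 117, 22.6 and 122 CPM in xylose and 619, 346 and 733 CPM in the reference (log2-fold change -2.70 ± 0.56). A CoA carboxylase beta-like gene (CTHT_0013320) had 43.1, 67.1 and 119.9 CPM in xylose and 357, 920.0 and 286 CPM in the reference (log2-fold change -2.76 ± 0.50). Methylmalonate-semialdehyde dehydrogenase (CTHT_0053600), of valine breakdown, had 42.4, 34.9 and 107 CPM in xylose and 272, 687 and 169.8 CPM in the reference (log2-fold change -2.61 ± 0.55). The groups were separated in all 3. The members that rose were 3-hydroxyisobutyryl-CoA hydrolase (CTHT_0061360), also of valine breakdown, and the electron transfer flavoprotein alpha subunit (CTHT_0034170), which passes electrons to the respiratory chain, at 2.05 ± 0.35 and 1.90 ± 0.45 on the log2 scale. None of the 10 genes differed between xylose and glucose in edgeR's test, where 50.8% of all genes did.

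Storage carbohydrate genes showed no common direction, with 1 of 7 higher and 2 lower, and with 2 higher and 2 lower without reference replicate 2. Among all genes tested, 32.3% rose and 32.4% fell. Trehalose-6-phosphate synthase (CTHT_0019220) had 292, 733 and 278 CPM in xylose and 40.04, 120.0 and 61.6 CPM in the reference, a log2-fold change of 2.56 ± 0.49. The trehalose synthase-like gene CTHT_0019540 had 64.4, 217 and 115 CPM in xylose and 407, 611 and 369.9 CPM in the reference (log2-fold change -1.81 ± 0.53). A putative glycogen storage control gene (CTHT_0000110) had 59.7, 89.8 and 70.7 CPM in xylose and 336, 657 and 387 CPM in the reference (log2-fold change -2.65 ± 0.37). In each of these 3 DEGs the groups did not overlap, which held for 66.3% of all genes tested.

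Against 32.4% and 32.3% of all genes tested, 6 of 11 genes of cell wall synthesis fell and 4 rose. The number that rose was 1 without xylose replicate 1 and 2 without xylose replicate 3. The genes with the largest decreases included a pair of 1,3-beta-glucanosyltransferases, which remodel glucan in the wall. CTHT_0015980 had 229, 559.8 and 358 CPM in xylose and 3006, 2856 and 2446 CPM in the reference (log2-fold change -2.86 ± 0.44), and CTHT_0068680 had 323, 249 and 401 CPM in xylose and 1202, 1764 and 1108 CPM in the reference (log2-fold change -2.06 ± 0.37). The chitin synthase-like gene CTHT_0030070 had 96.6, 196 and 144 CPM in xylose and 452, 531 and 639.6 CPM in the reference (log2-fold change -1.89 ± 0.35). The 3 largest increases all belonged to the synthesis of UDP-N-acetylglucosamine, the precursor of chitin: its pyrophosphorylase (CTHT_0058610) rose by 1.17 ± 0.27, the acetyltransferase CTHT_0011460 by 0.87 ± 0.32 and the mutase CTHT_0052760 by 0.84 ± 0.25. The acetyltransferase overlapped between the groups and was no DEG without xylose replicates 1 or 3 or reference replicates 1 or 3 in turn (adjusted p between 0.107 and 0.131, edgeR), and the mutase was none without xylose replicate 1 (0.0527).

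Ergosterol synthesis, which makes the main sterol of fungal membranes, rose in 8 of 12 genes and fell in 1. Of all genes tested, 32.3% rose and 32.4% fell. The farnesyl pyrophosphate gene CTHT_0028580 had 249, 183 and 306 CPM in xylose and 20.7, 69.8 and 9.86 CPM in the reference (log2-fold change 2.88 ± 0.58). A terpene cyclase gene (CTHT_0027770) had 111, 70.1 and 128 CPM in xylose and 16.6, 37.1 and 11.4 CPM in the reference (log2-fold change 2.24 ± 0.42), and the sterol isomerase CTHT_0065670 had 79.04, 89.7 and 95.5 CPM in xylose and 20.4, 32.3 and 15.1 CPM in the reference (log2-fold change 1.96 ± 0.28). The gene called lower, an acetyl-CoA acetyltransferase-like gene (CTHT_0034340), overlapped between the groups, with 55.98, 39.8 and 114 CPM in xylose and 103, 353 and 99.9 CPM in the reference. Its log2-fold change of -1.41 ± 0.51 was -0.65 without reference replicate 2 (adjusted p = 0.124, edgeR), and it was no DEG without xylose replicate 1 (0.0678) or xylose replicate 2 (0.0936).

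Antioxidant enzymes rose in 2 of 9 genes and fell in 1, against 32.3% and 32.4% of all genes tested. Without reference replicate 2, 5 rose and 1 fell, and without xylose replicate 2 or reference replicate 1 none fell. A peroxidase gene (CTHT_0054130) had 1280.3, 1375 and 1864 CPM in xylose and 235, 660.1 and 146 CPM in the reference (log2-fold change 2.12 ± 0.53), and the Cu-Zn superoxide dismutase CTHT_0013440 had 468, 324 and 717 CPM in xylose and 119, 227 and 32.4 CPM in the reference (log2-fold change 1.99 ± 0.59). Glutathione peroxidase (CTHT_0029180) fell by 0.76 on the log2 scale and was no DEG without xylose replicate 2 (adjusted p = 0.0679, edgeR) or reference replicate 1 (0.0625). Of 6 histone genes, 1 H2A gene (CTHT_0007640) rose, with 116, 86.2 and 124 CPM in xylose and 45.4, 52.2 and 43.8 CPM in the reference (log2-fold change 1.21 ± 0.23). The other 5 overlapped between the groups and did not pass the test, and without reference replicate 2 the count called was 2.

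Both genes that the study used to normalize its quantitative PCR were called higher in xylose. Actin (CTHT_0062070) had 1321, 1032 and 1732 CPM in xylose and 629.5, 908 and 398 CPM in the reference, a log2-fold change of 1.08 ± 0.41 and an adjusted p of 0.0372 in edgeR's test. RBP2 (CTHT_0045510) had 136, 135 and 130.4 CPM in xylose and 73.1, 72.8 and 106 CPM in the reference, a log2-fold change of 0.68 ± 0.23 and an adjusted p of 0.0222 in edgeR's test. The groups did not overlap in either gene. Actin was no DEG without xylose replicate 1 (adjusted p = 0.0889), xylose replicate 3 (0.120), reference replicate 1 (0.0921) or reference replicate 3 (0.113), and RBP2 was none without xylose replicate 1 (0.0980), reference replicate 1 (0.0831) or reference replicate 2 (0.0947). Neither passed with only xylose and reference libraries fitted (0.0871 for actin and 0.0593 for RBP2).

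The largest increases of all were mostly of genes without a product name in the tables used. Among the 50 largest increases 15 had a name, and among the 50 largest decreases 19. CTHT_0019950 had 171, 39.1 and 106 CPM in xylose and 0.543, 0.409 and 0.859 CPM in the reference, a log2-fold change of 7.45 ± 0.71. CTHT_0012040 had 291, 37.5 and 277 CPM in xylose and 1.07, 1.23 and 1.24 CPM in the reference (log2-fold change 7.42 ± 0.73). In both, as in the xylanases CTHT_0039870 and CTHT_0047500, xylose replicate 2 was the lowest xylose library by a wide margin. CTHT_0014350 had 211, 651 and 177 CPM in xylose and 5.9002, 1.27 and 5.39 CPM in the reference, with xylose replicate 2 the highest, and CTHT_0061330 had 739, 1018 and 863 CPM in xylose and 4.5998, 23.4 and 5.06 CPM in the reference. Their log2-fold changes were 6.37 ± 0.78 and 6.31 ± 0.70.

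Named genes among the largest increases, beside those described above, were few. An FAD-binding protein gene (CTHT_0043670) had 61.5, 83.6 and 82.3 CPM in xylose and 1.203, 0.817 and 1.504 CPM in the reference (log2-fold change 6.01 ± 0.31, adjusted p = 7.5e-07, edgeR). Orotate phosphoribosyltransferase (CTHT_0029650), of pyrimidine synthesis, had 153, 377 and 219 CPM in xylose and 4.54, 16.97 and 4.06 CPM in the reference (log2-fold change 4.87 ± 0.60). Both were named by a rule that required groups without overlap.

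The largest decrease was that of a receptor-like gene (CTHT_0067930), which had 1.11, 0.825 and 0.923 CPM in xylose, against 2703, 767 and 1276 CPM in the reference. Its log2-fold change was -10.69 ± 0.74, with an adjusted p of 3.24e-06 in edgeR's test. The unnamed gene CTHT_0064430 had 0.247, 0.412 and 0.314 CPM in xylose and 321, 48.8 and 236 CPM in the reference (log2-fold change -9.28 ± 0.74). In both genes, unlike the ribosomal protein genes, reference replicate 2 was the lowest reference library. A dehydrogenase-like gene (CTHT_0004620) had 17.9, 4.34 and 60.5 CPM in xylose and 13809.8, 8054 and 11373 CPM in the reference, where it was among the 10 genes with the most reads (log2-fold change -8.65 ± 1.07).

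The unnamed gene CTHT_0001090 had no read in any xylose library and 3.84, 0.602 and 2.101 CPM in the reference. Taking 3 counts per library as the most that a count of 0 allows, which is 0.0590 CPM on average in xylose, it was at least 37.0-fold lower in xylose. Reference replicate 2 was again the lowest. The unnamed gene CTHT_0013830 had 0.0884, 0.0651 and 0.0786 CPM in xylose and 42.7, 0.624 and 19.2 CPM in the reference (log2-fold change -8.01 ± 1.27). Its xylose values are close to the 0.0530 to 0.0651 CPM that 3 reads make, so the size of the change is uncertain. A gene named D-3-phosphoglycerate dehydrogenase (CTHT_0043210) fell by 7.66 on the log2 scale, with 0.283, 0.109 and 0.393 CPM in xylose and 102, 1.38 and 58.5 CPM in the reference, while the gene of like name above, CTHT_0028080, rose. In both genes that fell, reference replicate 2 was far below the other reference libraries.

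Further named genes among the largest decreases included transport and mitochondrial functions. A putative nicotinamide mononucleotide transporter (CTHT_0050380) had 33.96, 9.61 and 43.9 CPM in xylose and 8214, 2669.7 and 3661 CPM in the reference (log2-fold change -7.38 ± 0.79). A mitochondrial aldehyde dehydrogenase-like gene (CTHT_0006570) had 28.4, 12.5 and 35.7 CPM in xylose and 4234, 1725 and 3480.1 CPM in the reference (log2-fold change -6.94 ± 0.63). Carbonic anhydrase (CTHT_0042540), which hydrates CO2, had 0.937, 0.694 and 1.22 CPM in xylose and 159, 54.5 and 108 CPM in the reference (log2-fold change -6.81 ± 0.65). The rule that named these genes required groups without overlap, so their separation is no further result.

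The mitochondrial nicotinamide nucleotide transhydrogenase-like gene CTHT_0027680, which exchanges hydride between NADH and NADP, had 2.65, 3.798 and 2.36 CPM in xylose and 213, 63.9 and 189 CPM in the reference (log2-fold change -5.73 ± 0.48). Xanthine dehydrogenase-like (CTHT_0001520), of purine breakdown, had 1.75, 0.977 and 1.45 CPM in xylose and 75.9, 17.8 and 86.7 CPM in the reference (log2-fold change -5.43 ± 0.61). A rad7-like DNA repair gene (CTHT_0062160) had 0.0177, 0.0868 and 0.0589 CPM in xylose and 1.46, 1.14 and 4.11 CPM in the reference (log2-fold change -5.33 ± 0.79). Its xylose values lie near the 0.0530 to 0.0651 CPM that 3 reads make, so the size of the change is uncertain. Passing the test was part of the rule that named these genes. An N-acetyltransferase-like gene (CTHT_0033430) had 1.63, 34.6 and 2.97 CPM in xylose and 474, 626 and 468 CPM in the reference (log2-fold change -5.32 ± 0.99), xylose replicate 2 being the highest xylose library.

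**Figure D5:**
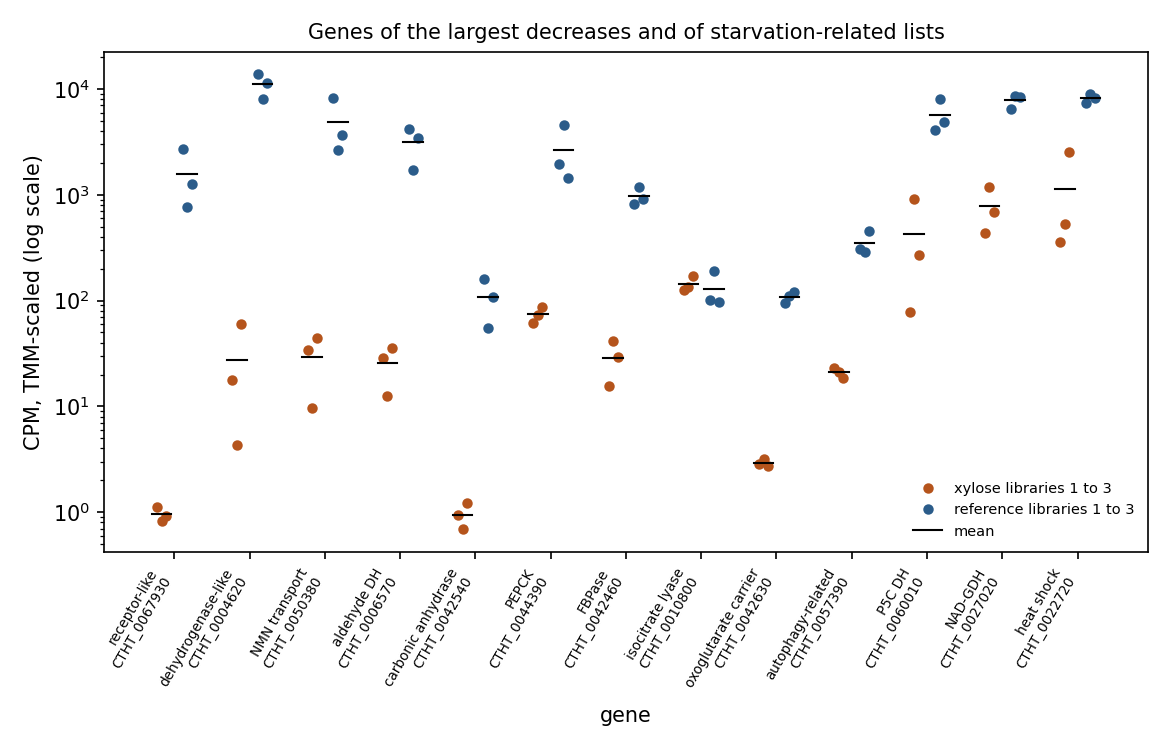
CPM scaled by TMM (vertical axis, log scale) of 13 genes. The 3 xylose libraries are left (orange) and the 3 reference libraries right (blue) of each gene's tick, with a bar at each mean. The genes were picked from the largest decreases and from the lists of gluconeogenesis, mitochondrial carriers, autophagy, amino acid breakdown and chaperones. In the carrier list 6 of 9 genes rose, and in the chaperone list 12 of 22. NMN is nicotinamide mononucleotide, DH dehydrogenase, PEPCK phosphoenolpyruvate carboxykinase, FBPase fructose-1,6-bisphosphatase, P5C delta-1-pyrroline-5-carboxylate and GDH glutamate dehydrogenase; in 12 genes every xylose library is below every reference library, and isocitrate lyase overlaps.

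The genes that took the most reads changed with the sugar. The 10 leading genes outside rRNA took 8.02%, 10.9% and 8.71% of the reads outside rRNA genes in xylose and 13.6%, 12.9% and 13.3% in the reference. These values depend on the length of each gene as well as its level. In xylose they included, beside elongation factor 1-alpha, GAPDH, the ADP/ATP carrier and both ATP synthase genes CTHT_0006240 and CTHT_0016430, a putative elongation factor (CTHT_0033570) and the 60S ribosomal protein L3-like gene (CTHT_0004490). CTHT_0033570 had 4122, 5548 and 6617 CPM in xylose and 388, 771 and 305 CPM in the reference, and CTHT_0004490 had 4082, 5779.9 and 6521 CPM in xylose and 422, 1518 and 267 CPM in the reference. The beta subunit of ATP synthase (CTHT_0006240) had 3846, 6343 and 6508 CPM in xylose and 718, 1841 and 377 CPM in the reference. All 3 rose, by 3.48 ± 0.52, 2.89 ± 0.66 and 2.51 ± 0.61 on the log2 scale.

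A thaumatin-like elicitor gene (CTHT_0027570) and an unnamed gene (CTHT_0004310) also belonged to that group. CTHT_0027570 had 4728, 17055 and 4858 CPM in xylose and 7703, 6969.9 and 5267 CPM in the reference, with overlap and no call (adjusted p = 0.617, edgeR), and its log2-fold change of 0.42 ± 0.70 was -0.46 without xylose replicate 2. CTHT_0004310 rose, with 7118, 11378 and 6346 CPM in xylose and 2598, 815 and 1369 CPM in the reference (log2-fold change 2.38 ± 0.64). The 26S rRNA gene CTHT_0000050 had 106028, 114950.0 and 124640.0 CPM in xylose and 158663, 164677 and 329360.0 CPM in the reference and did not pass the test (adjusted p = 0.491, edgeR).

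In the reference, the genes with the most reads included NAD-specific glutamate dehydrogenase and the heat shock genes given above, and a set that fell in xylose. The unnamed gene CTHT_0060930 had 1017, 2470.0 and 1807 CPM in xylose and 13696, 20838 and 13646 CPM in the reference (log2-fold change -3.19 ± 0.64), and CTHT_0011280 had 657, 2083 and 2148 CPM in xylose and 10831, 7232 and 10000.4 CPM in the reference (log2-fold change -2.52 ± 0.60). A putative structural cell wall protein (CTHT_0051440) had 1655, 2057 and 2693 CPM in xylose and 14000.1, 16421 and 9783 CPM in the reference (log2-fold change -2.65 ± 0.55). None of these overlapped between the groups. Acyl-CoA desaturase (CTHT_0029500), which introduces double bonds into fatty acids, had 637, 2414 and 1548 CPM in xylose and 6138, 13782 and 7387 CPM in the reference (log2-fold change -2.57 ± 0.69). A gene named ubiquitin C (CTHT_0041260), which encodes the tag for degradation, had 805, 1124 and 1667 CPM in xylose and 7356, 9172 and 9181 CPM in the reference (log2-fold change -2.84 ± 0.56).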

How the data were processed

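Poly(A)-selected RNA of whole mycelium was sequenced with a directional kit, and the authors mapped the single-end 50-bp reads with TopHat2 to the genome of Ensembl release 28, allowing introns of 40 to 5000 bp. They deposited raw counts per gene made with summarizeOverlaps. How reads on several or overlapping genes and the strand were handled is not given in the sources used here, so near-identical genes may share reads.

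Groups came from the labels. The analysis used edgeR 4.0.16 in R 4.3.3, with TMM scaling, filterByExpr (minimum count 10), a quasi-likelihood fit of the 3 conditions over all 9 libraries, and Benjamini-Hochberg adjustment over all 6904 genes tested, with a threshold of 0.05. Standard errors (SE) were obtained by dividing each log2-fold change by the root of its F statistic. The procedure was tested on simulated data. A count of 0 allows 3 reads, between 0.0530 and 0.0651 CPM in xylose and between 0.0582 and 0.0716 CPM in the reference. Such floors cover counting error alone. Replicates all differed by more than sampling noise.

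The members and lists were chosen with earlier results of these data known. Genes are named by rule: all genes of the lists on sugar use, mitochondrial carriers, ribosome assembly and quantitative PCR normalizers; the 10 largest changes each way with a product name and the 5 largest with or without one, among DEGs whose groups do not overlap; the 10 genes with the most reads per group; and up to 3 of the largest changes each way in other lists. In total 154 genes were named, 145 of them DEGs. A few more, said to be so, were added after their values were seen. Gene IDs matched locus tags of RefSeq assembly CTHT_3.0 for 7472 genes and did not for 313. A search of promoter sequences was planned and is not reported here. Alternatives were other scalings, filters, fits and thresholds, DESeq2 1.42.0, a replicate block and leaving out each library.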

Additional observations from a re-analysis of the deposited data

How the results depend on the processing

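Except in a test against a log2-fold change of 1, the count of DEGs stayed within 1.5 times of 4463. This held under every other scaling, filter, test and fit tried. The count lay between 4016 and 4664 when 1 library was left out, with 1947 to 2259 genes higher and 1987 to 2457 lower. The test against a log2-fold change of 1 called 2683 genes, 1403 higher and 1280 lower, as its construction requires larger changes. Scaling by total counts gave all genes a median of 0.06 on the log2 scale, against -0.05 with TMM, and called 4025 genes. TMM scaled to xylose replicate 3, an alternative chosen after seeing the data, called 4461 genes. With the replicate number as a block, 4399 genes were DEGs, 2197 higher and 2202 lower. The deviations of same-numbered xylose and reference libraries correlated at 0.21, -0.03 and -0.28. Those of differently numbered libraries correlated between -0.24 and 0.28. With 3 libraries a group, these values cannot settle whether the numbers pair the samples.

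Lists with few calls depended most on the processing, and the cause was not tested. Under the block no cellulase or ergosterol gene fell (0 each) and 1 normalizer gene rose. The fit of only xylose and reference libraries called 0 cellulase and 0 ergosterol genes lower, 0 normalizer genes higher, 1 citric acid cycle gene lower, and 2 proteasome genes higher and 1 lower. It tested 5 xylan-degrading enzymes in place of 6 and called all 5, and called 5 glycolytic genes higher in place of 6. DESeq2's Wald test called 2 cellulase genes lower. Without rRNA reads 10 proteasome genes rose and 1 fell, and 1 fell also with total counts and without a filter. With total counts 0 antioxidant genes fell. Leaving out 1 library, the number higher ranged between 0 and 11 for the proteasome, 2 and 5 for antioxidant enzymes, 1 and 4 for cell wall synthesis, 1 and 2 for histones, 0 and 2 for normalizers, and 1 and 2 for trehalose and glycogen. The number lower ranged between 1 and 4 for the proteasome, 0 and 1 for antioxidant enzymes, 0 and 2 for cellulases, 4 and 7 for chaperones, 0 and 1 for ergosterol, and 1 and 2 for the citric acid cycle. Medians ranged between -1.20 and -0.75 for cell wall synthesis, 0.69 and 1.63 for the citric acid cycle, and 2.93 and 3.19 for ribosome assembly.

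Of the 145 named DEGs, 16 lost their call when some library was left out, and 9 in the fit of only xylose and reference libraries (adjusted p between 0.0504 and 0.0871, edgeR). The direction turned in 3 genes that were no DEGs: CTHT_0050360 (range -0.42 to 0.22, positive without reference replicate 2), CTHT_0010800 (-0.011 to 0.44, negative without reference replicate 3) and CTHT_0027570 (-0.46 to 0.72, negative without xylose replicate 2). Against glucose, differences near 0 turned for CTHT_0013420 (0.15), CTHT_0014530 (0.019) and CTHT_0015330 (0.098) with total counts, and for CTHT_0067300 (-0.00504) under the block. Having 3 libraries a group limits the changes that can be called.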
